A study of Mus musculus with 6 samples.

Results

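The members described here were the nuclear-coded subunits of the mitochondrial respiratory chain and of ATP synthase on a mouse expression array. They were all genes with a symbol that starts with Nduf, Uqcr, Atp5 or Cox4 to Cox8, or that is Sdha, Sdhb, Sdhc or Sdhd, leaving out Cox7a1 and Cox8b. The Nduf prefix also takes in 8 assembly factors of complex I. This gave 88 of the 18193 genes with a probe set of their own, of which 44 belonged to complex I, 4 to complex II, 8 to complex III, 15 to complex IV and 17 to ATP synthase (complex V). Each gene was read from its brightest probe set, and 86 passed the filter on low signals. Ndufb4 and Cox7b2 did not.

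Total RNA of mammary glands was compared between female mice of 10 weeks and of 5 weeks. All were bitransgenic: animals named LH in the labels had been mated with MMTV-neu mice, whose neu (Erbb2) oncogene is driven by a viral promoter active in mammary epithelium. Both ages carried both transgenes, so no group lacked them. Each age had 3 arrays, each array held pooled RNA of 3 animals, and 9 animals stood behind an age.

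The respiratory chain passes electrons from NADH, at complex I, and from succinate, at complex II, through coenzyme Q to complex III and through cytochrome c to complex IV, where oxygen is reduced to water. Complexes I, III and IV pump protons out of the matrix, and ATP synthase lets them flow back and makes ATP. Complex I has a matrix arm, which takes electrons from NADH, and a membrane arm, which pumps. Muscle and brown fat are rich in mitochondria, and a mammary gland holds epithelium within a pad of fat beside muscle.

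Promoters of these genes are known for sites of NRF1 and of ETS factors such as GABPA. A RefSeq table of mouse promoters (GRCm38.p6, 250 bases before to 50 after a gene's start) held 72 of the 88 members with 77 promoters. An NRF1 site, spelled GCGCA and GCGC with 1 base of any kind between them, was found on either strand in 23.4% of the members' promoters and in 4.6% of all 32851. CCGGAAG, an ETS site, was found in 24.7% and 8.86%, AAGATGGC, a YY1 site, in 13.0% and 2.75%, and TCAAGGTCA, a site of the ERR receptors, in 2.6% and 0.423%. CCAAT, a common promoter element, was found in 41.6% and 37.4%. No motif of these contains another. Ndufa8 (chr2:36049339-36049418) and Uqcrh (chr4:116075071-116075150), both on the minus strand, are shown. They were picked because each gene passed the test described below and has an NRF1 or ETS site in these bases, which lie in no gene. Each stretch is the 80 bases before the start of the gene, 5' to 3' on the gene's strand. The capitals mark the NRF1 site of Ndufa8 and the ETS site of Uqcrh, and in both the motif as spelled reads on the opposite strand.
Ndufa8: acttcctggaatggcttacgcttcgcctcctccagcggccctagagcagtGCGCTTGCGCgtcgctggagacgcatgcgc
Uqcrh: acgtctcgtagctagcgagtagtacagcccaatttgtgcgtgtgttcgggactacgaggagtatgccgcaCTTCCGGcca
Among the promoter-matched members, the NRF1 site was in 6 of 16 that were lower at 10 weeks, 0 of 3 higher and 10 of 51 that did not pass the test. The ETS site was in 5 of 16, 1 of 3 and 13 of 51, the YY1 site in 4 of 16, 0 of 3 and 6 of 51, the ERR site in 1 of 16, 0 of 3 and 1 of 51, and CCAAT in 5 of 16, 3 of 3 and 21 of 51. Such a match is a run of letters and describes no binding.

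The 6 arrays had median signals of 156.4 to 172.5. Log2 signals of pools of the same age correlated at 0.973 to 0.978 across probe sets, and those of different ages at 0.932 to 0.955. Of 12 genes of luminal and milk-producing epithelium, all passed the filter, so the defining cells of the labelled tissue were represented. Of these, 7 were higher at 10 weeks (58.3%, beside 15.3% of all genes tested). The number of arrays limits the precision, and p-values measure the spread between pools, which covers animals and array step together. In a whole gland, fewer cells of a type and less RNA per cell cannot be told apart.

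Differences of the respiratory chain genes between the ages were small, and more of the genes that passed the test were lower at 10 weeks than higher. At 10 weeks 20 of the 86 members tested were lower and 4 were higher, and 62 did not pass the test (limma across all probe sets, Benjamini-Hochberg adjusted p under 0.05). Those shares were 23.3% lower and 4.65% higher, beside 18.7% lower and 15.3% higher of all 13002 genes tested. The share called in either direction was 27.9% of the members and 34.1% of all genes. The median log2 difference, 10 weeks minus 5 weeks, was -0.08 over the members and -0.0037 over all genes. All differences are on the scale of log2(signal + 32), which understates those of dim genes. Only Cox6b2 was called with a difference of at least 1 on this scale, where 10.4% of all genes were. In 29 members all 10-week pools lay below all 5-week pools and in 10 members above, which is 45.3%, beside 50.3% of all genes.

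The counts depended on the scaling and on single pools. With quantile normalization 29 members were lower and 2 higher, beside 17.6% and 16.2% of all genes, and the members' median was -0.16. With each array shifted to 1 median 15 were lower and 4 higher. The counts were 9 lower and 2 higher without 10-week pool 1, 13 and 4 without 10-week pool 2, 12 and 5 without 5-week pool 2, and 13 and 3 without 5-week pool 3. Leaving out 10-week pool 3 or 5-week pool 1 gave 16 lower and 2 higher each. The share of members lower was above that of all genes in the fit reported here and with quantile normalization (33.7% against 17.6%). It was also above with no filter (14.8% against 12.3%), averaged probe sets (20.9% against 16.3%), either offset and the robust variance trend. Without 10-week pool 3 it was 18.6% against 15.4%, and it was 18.6% against 15.5% without 5-week pool 1. It was close to that of all genes with arrays shifted (17.4% against 17.3%), array weights (18.6% against 18.5%) and 60% of probe sets dropped (22.0% against 21.3%). It was below with no variance trend (14.0% against 17.2%) and without some pools. It was 10.5% against 14.3% without 10-week pool 1, 15.1% against 15.3% without 10-week pool 2, 14.0% against 15.7% without 5-week pool 2 and 15.1% against 15.2% without 5-week pool 3. The share of members higher was below that of all genes in the reported fit and under all 16 alternatives. Of the 24 members called, 8 kept the call under every alternative that tested them. These were Ndufs1, Ndufs3, Ndufb3, Ndufaf5, Ndufaf6, Cox6b2 and Atp5k, all lower, and Ndufc2, higher. Cox6b2 was the only member tested that passed the filter through 1 age alone.

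**Figure D1:**
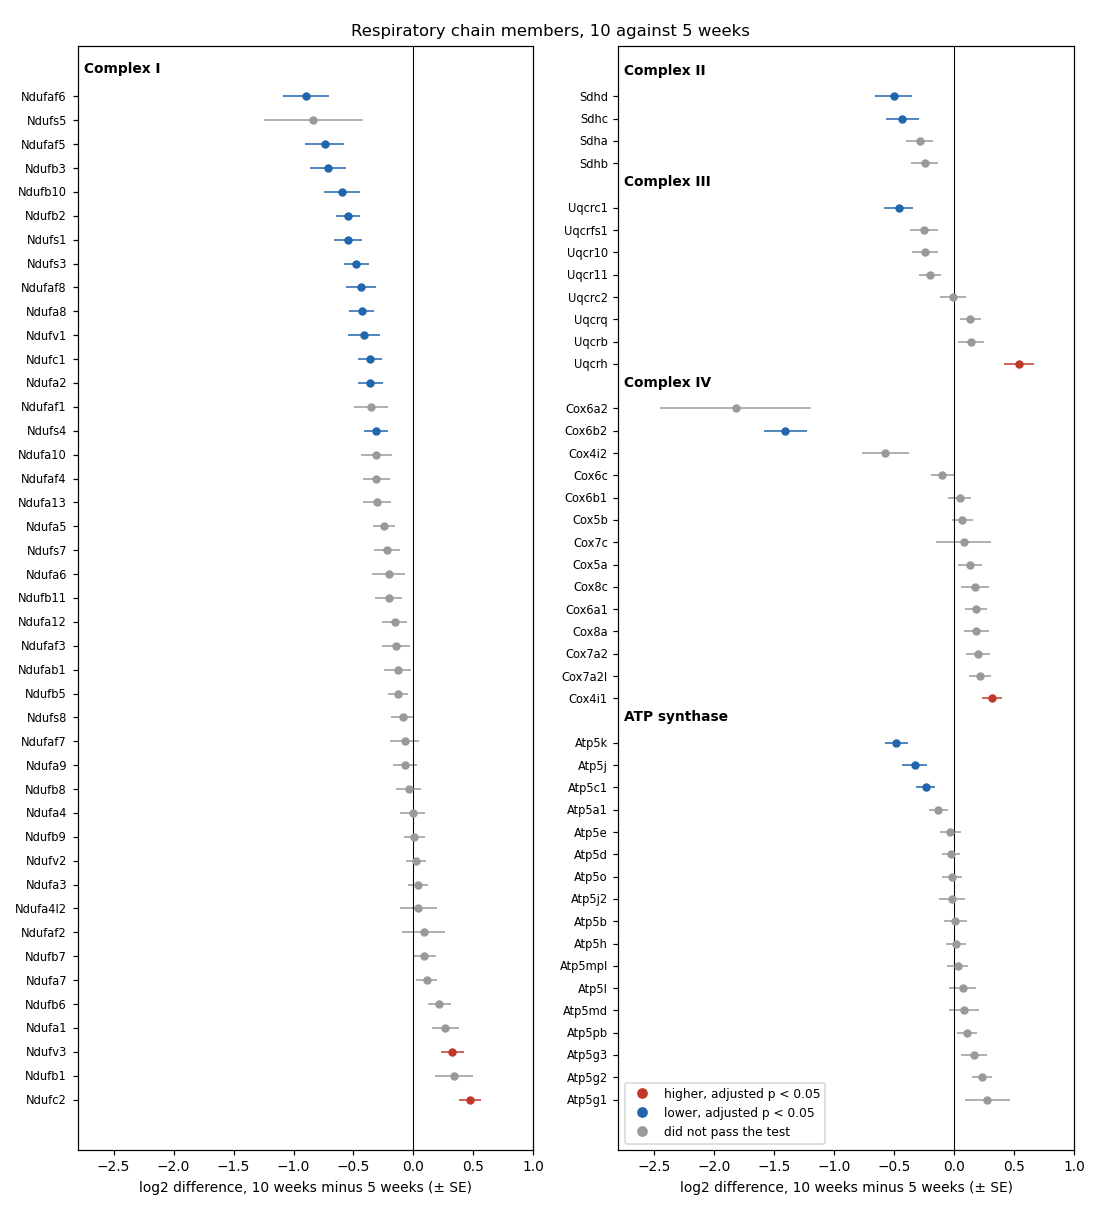
The log2 difference (10 weeks minus 5 weeks, horizontal axis) is drawn for the 86 members tested, by complex, with its SE from limma and 3 pools per age. Blue points are the 20 lower members, red points the 4 higher and grey points the 62 that did not pass the test. Complex I points lie mostly left of 0, and the widely used subunits of complex IV mostly right of it, which they did not under quantile normalization.

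Complex I made up 43 of the 86 members tested and held 13 of the 20 that were lower, and 2 of its members were higher. These shares were 30.2% and 4.65%, beside 18.7% lower and 15.3% higher of all genes tested. The median log2 difference was -0.21. Without the assembly factors 10 of 35 subunits were lower (28.6%), 2 were higher (5.71%), and the median was -0.16. Ndufa4 and Ndufa4l2, described below, are counted here with complex I by their names, and neither was called. Differences were below 0 in 31 of the 43, in 34 under quantile normalization and in 30 with arrays shifted to 1 median. Lower calls numbered 7 of the 43 without 10-week pool 1 and 8 without 10-week pool 2, where 14.3% and 15.3% of all genes were lower. Higher calls numbered 1 without 10-week pool 1, 10-week pool 3, 5-week pool 1 or 5-week pool 3. The mean log2 level of the 43 genes, set against the 5-week mean, was -0.28, -0.19 and -0.13 at 10 weeks and -0.06, 0.01 and 0.05 at 5 weeks, so the ages did not overlap.

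In the catalytic core of the matrix arm 3 of 6 subunits were lower (50%, beside 18.7% of all genes tested), and the median was -0.32. None was higher (limma; none at an unadjusted p under 0.05), beside 15.3% of all genes. Ndufs1, the large iron-sulfur subunit that carries electrons away from the flavin, had signals of 1838, 1829 and 2263 at 10 weeks and 2645, 3079 and 2942 at 5 weeks. All 10-week pools lay below all 5-week pools, and the log2 difference was -0.54 ± 0.12 (SE, adjusted p = 0.00857). Ndufs3, in the part of the arm that hands electrons to coenzyme Q, had signals of 3538, 4202 and 4309 at 10 weeks and 5211, 5754 and 5815 at 5 weeks. Its difference was -0.48 ± 0.10 (SE, adjusted p = 0.00924), again with no overlap. Ndufv1 binds NADH and the flavin. Its signals were 4022, 4193 and 5499 at 10 weeks and 5375, 6459.8 and 6324 at 5 weeks, and here 10-week pool 3 overlapped the 5-week range. The difference of Ndufv1 was -0.41 ± 0.13 (SE, adjusted p = 0.0483). This call was marginal: its adjusted p was 0.148 without 10-week pool 1, 0.14 without 10-week pool 2, 0.126 without 5-week pool 2 and 0.119 without 5-week pool 3, and 4 of 10 other settings lost it. Ndufs7, Ndufs8 and Ndufv2, which also hold iron-sulfur clusters, differed by -0.22, -0.09 and 0.02 and did not pass the test.

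Supernumerary subunits surround this core without carrying electrons. In the matrix arm 2 of 8 were lower (25%) and 1 was higher (12.5%), with a median of -0.18. Of all genes tested, 18.7% were lower and 15.3% higher. Ndufa2 had signals of 3208, 3746 and 4013 at 10 weeks and 4490.4, 4672 and 4891 at 5 weeks, and Ndufs4, needed for a stable arm, had 1792, 1942 and 2031 at 10 weeks and 2223, 2435 and 2507 at 5 weeks. Both genes had lower signals in every 10-week pool, with differences of -0.36 ± 0.10 (SE, adjusted p = 0.0312) and -0.31 ± 0.10 (SE, adjusted p = 0.0462). Neither call was stable. For Ndufa2 the adjusted p was 0.0965 without 10-week pool 1, 0.0643 without 10-week pool 2, 0.0557 without 5-week pool 1, 0.0706 without 5-week pool 2 and 0.0798 without 5-week pool 3. For Ndufs4 it was 0.136 without 10-week pool 1, 0.0981 without 10-week pool 2, 0.0653 without 10-week pool 3, 0.0549 without 5-week pool 1, 0.113 without 5-week pool 2 and 0.11 without 5-week pool 3. Ndufv3, a small subunit beside the flavin site, went the other way with signals of 9092, 8046 and 8743 at 10 weeks and 6248, 7551 and 6888 at 5 weeks. It rose by 0.32 ± 0.10 (SE, adjusted p = 0.0364) without overlap, with an adjusted p of 0.113 without 10-week pool 1, 0.0974 without 10-week pool 3, 0.117 without 5-week pool 1 and 0.0694 without 5-week pool 3, and 3 of 10 other settings lost the call. Ndufa5, Ndufa6, Ndufa7, Ndufa9 and Ndufa12 did not pass the test, with differences from -0.24 to 0.11. The acyl carrier Ndufab1, part of both arms, differed by -0.13 ± 0.12 (SE, adjusted p = 0.43).

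Of the 18 membrane arm subunits tested, all supernumerary since the pumping core is coded by mitochondrial DNA, 5 were lower, 1 was higher, and the median was -0.17. These shares were 27.8% lower and 5.56% higher, beside 18.7% and 15.3% of all genes tested. Ndufb3 had signals of 2303, 3054 and 3543 at 10 weeks and 4626, 4712 and 5096 at 5 weeks, with every 10-week pool below every 5-week pool. Its difference of -0.71 ± 0.15 (SE, adjusted p = 0.00745) was the largest among the called subunits of complex I that are not assembly factors. Ndufb2 had 3878, 4483 and 3856 at 10 weeks and 5485, 6267 and 6117 at 5 weeks, and it differed by -0.55 ± 0.10 (SE, adjusted p = 0.00398) without overlap. With averaged probe sets the difference of Ndufb2 was -0.19 (adjusted p = 0.308). Ndufb10, with 2136, 2402 and 2798 at 10 weeks and 3095, 3666 and 4421 at 5 weeks, did not overlap either. The difference was -0.60 ± 0.15 (SE, adjusted p = 0.017), and the adjusted p became 0.0585 without 10-week pool 1 and 0.0505 without 10-week pool 2.

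Ndufa8, the membrane arm subunit with the NRF1 letters shown above, had signals of 3336, 3953 and 3531 at 10 weeks and 4467, 4845 and 5331 at 5 weeks. It differed by -0.43 ± 0.11 (SE, adjusted p = 0.015) without overlap, and the adjusted p was 0.053 without 10-week pool 1. Ndufc1 had 4402, 5208 and 5413 at 10 weeks and 6404, 6477 and 6362 at 5 weeks, and its 5-week pools lay close together above all 10-week pools. Its difference was -0.36 ± 0.10 (SE, adjusted p = 0.0243). The adjusted p of Ndufc1 was 0.0747 without 10-week pool 1, 0.0624 without 5-week pool 1 and 0.0624 without 5-week pool 2, and 2 of 10 other settings lost the call, among them averaged probe sets with -0.20 (adjusted p = 0.188).

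Ndufc2, which lies next to Ndufc1 in the complex, changed in the opposite direction. Its signals were 8914, 7832 and 9126 at 10 weeks and 6485, 6123 and 5995 at 5 weeks, with all 10-week pools above all 5-week pools. It rose by 0.47 ± 0.09 (SE, adjusted p = 0.00526), and no alternative ended this call. The brightest members of complex I, Ndufb9 and Ndufa1, differed by 0.01 ± 0.09 (SE, adjusted p = 0.956) and 0.27 ± 0.11 (SE, adjusted p = 0.101), and their pools overlapped. Without 5-week pool 2 that of Ndufa1 was 0.36 (adjusted p = 0.0411). Ndufs5 had signals of 441, 653 and 588 at 10 weeks and 2267, 683 and 661 at 5 weeks. A single pool, 5-week pool 1, stood far above both others of its age, and its difference was -0.83 ± 0.41 (SE, adjusted p = 0.162), short of the threshold. The remaining 9 subunits of this arm ranged from -0.31 (Ndufa10) to 0.34 (Ndufb1), and none passed the test. Without 5-week pool 1, Ndufa10 and Ndufa13 did, with -0.42 (adjusted p = 0.0455) and -0.40 (adjusted p = 0.0409). Ndufb4, below the filter, had 96.2, 119 and 71.7 at 10 weeks and 62.9, 109.5 and 75.4 at 5 weeks.

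Assembly factors build complex I and are not part of the finished enzyme. Of the 8 with the Nduf prefix 3 were lower (37.5%, beside 18.7% of all genes tested), and the median was -0.33. None was higher (limma; none at an unadjusted p under 0.05), beside 15.3% of all genes. Ndufaf6 had signals of 140.2, 165 and 152 at 10 weeks and 251, 293 and 405 at 5 weeks, and Ndufaf5, which modifies Ndufs7 during assembly, had 230.0, 268 and 251 at 10 weeks and 409.9, 376 and 543 at 5 weeks. In both genes the ages were clearly apart, with differences of -0.90 ± 0.19 (SE, adjusted p = 0.00823) and -0.74 ± 0.17 (SE, adjusted p = 0.0105). Ndufaf8, a partner of Ndufaf5, had 1486, 1259 and 1259 at 10 weeks and 1667, 1706 and 2084 at 5 weeks and differed by -0.43 ± 0.12 (SE, adjusted p = 0.0296). Its adjusted p was 0.0917 without 10-week pool 2, 0.0902 without 10-week pool 3 and 0.0819 without 5-week pool 3. With averaged probe sets its difference was -0.73 (adjusted p = 0.00425). The other 5 factors lay between -0.36 (Ndufaf1, adjusted p = 0.0956) and 0.09 (Ndufaf2, adjusted p = 0.759). Ndufa4, named as a complex I subunit but later found with complex IV, had overlapping pools with 7229, 7173 and 8135 at 10 weeks and 7347, 8477 and 6858 at 5 weeks and a difference of -0.01 ± 0.10 (SE, adjusted p = 0.973). Its isoform Ndufa4l2 differed by 0.04 ± 0.15 (SE, adjusted p = 0.869).

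**Figure D2:**
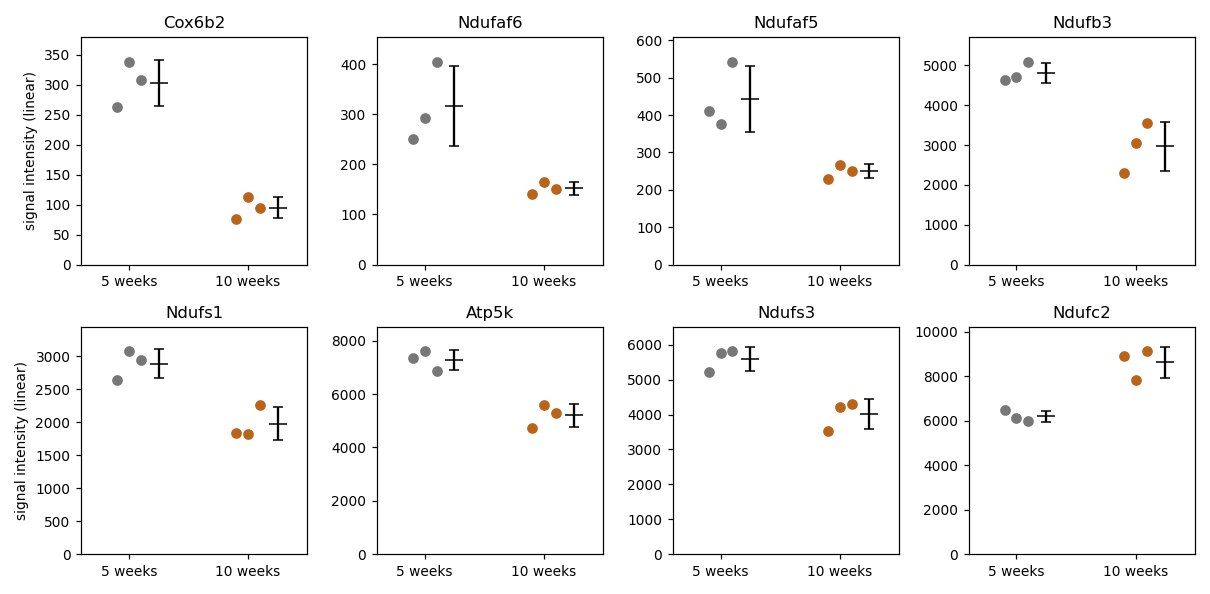
Signal intensity (linear, vertical axis from 0) in each pool is drawn for the 8 members whose call held under every alternative that tested them, with the mean ± SD of 3 pools beside the points. In 7 genes the 10-week pools lie below the 5-week pools, and in Ndufc2 they lie above.

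Complex II, succinate dehydrogenase, is also an enzyme of the tricarboxylic acid cycle. All 4 subunits had differences below 0, also under quantile normalization and with arrays shifted to 1 median, and the median was -0.36. Both membrane anchors passed the test, so 2 of 4 subunits were lower (50%, beside 18.7% of all genes tested). Sdhd had signals of 3486, 4235 and 5399.6 at 10 weeks and 5513, 6764 and 6159 at 5 weeks, and Sdhc had 2975, 3924 and 4236 at 10 weeks and 4564, 5065 and 5289.7 at 5 weeks, with no overlap between the ages in either gene. Their differences were -0.51 ± 0.16 (SE, adjusted p = 0.0386) and -0.43 ± 0.14 (SE, adjusted p = 0.0434). The catalytic subunits did not pass it. Sdha, the flavoprotein, had 5415, 5679 and 6149.6 at 10 weeks and 6541, 8183 and 6469 at 5 weeks and a difference of -0.29 ± 0.11 (SE, adjusted p = 0.0847). Sdhb, the iron-sulfur protein, had 5821, 6252 and 7202 at 10 weeks and 6802, 8352 and 7699 at 5 weeks, where 10-week pool 3 lay within the 5-week range, and a difference of -0.25 ± 0.11 (SE, adjusted p = 0.137). Neither anchor's call was stable. The adjusted p of Sdhd was 0.11 without 10-week pool 1, 0.0954 without 10-week pool 2, 0.108 without 5-week pool 2 and 0.0875 without 5-week pool 3. That of Sdhc was 0.106 without 10-week pool 1, 0.0669 without 10-week pool 2, 0.0558 without 5-week pool 1, 0.0967 without 5-week pool 2 and 0.115 without 5-week pool 3, and its difference was -0.28 without 10-week pool 1. With averaged probe sets the difference of Sdhd was -0.28 (adjusted p = 0.178). The mean log2 level of the 4 genes, set against the 5-week mean, was -0.57, -0.36 and -0.17 at 10 weeks and -0.13, 0.13 and 0.0005 at 5 weeks. The skeletal muscle list described below stood at -4.14, -1.07 and -1.12 and at 0.24, -0.68 and 0.44. The brown fat list stood at -1.28, -0.69 and -0.27 and at -0.28, 0.38 and -0.10. The white fat list stood at -0.82, -0.60 and -0.35 and at -0.09, 0.20 and -0.11. In each of these sets 10-week pool 1 was the lowest. It was also the lowest in the other complexes, but in complex III only narrowly (-0.099, against -0.094 in 5-week pool 1). In complex IV this held only with the tissue isoforms. Without them complex IV stood at 0.17, 0.02 and 0.20 at 10 weeks and at 0.02, 0.11 and -0.13 at 5 weeks. The part of these tissues in the result was not tested. Under quantile normalization all 4 subunits were called lower, and with array weights, no filter, no variance trend or averaged probe sets none was.

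Complex III moved in no common direction, with 1 of 8 members lower, 1 higher and a median of -0.11. These shares were 12.5% each way, beside 18.7% lower and 15.3% higher of all genes tested. Uqcrc1, a core protein that faces the matrix, had signals of 5637, 6804 and 7793 at 10 weeks and 9394, 9469 and 8841 at 5 weeks, and every 10-week pool was below every 5-week pool. Its difference was -0.46 ± 0.12 (SE, adjusted p = 0.0191), and its adjusted p was 0.0504 without 10-week pool 1, 0.0553 without 5-week pool 1 and 0.0519 without 5-week pool 2. The other core protein, Uqcrc2, had overlapping pools and a difference of -0.01 ± 0.11 (SE, adjusted p = 0.951). The Rieske iron-sulfur protein Uqcrfs1, the catalytic member, had 4966, 5951 and 6401 at 10 weeks and 6223, 7587 and 6785 at 5 weeks and a difference of -0.25 ± 0.12 (SE, adjusted p = 0.147). Among the small subunits, Uqcrb, the brightest member of this complex, differed by 0.14 ± 0.11 (SE, adjusted p = 0.362). Uqcr10, Uqcr11 and Uqcrq differed by -0.24, -0.20 and 0.13 and did not pass the test. Uqcr10 passed it without 5-week pool 1, with -0.34 (adjusted p = 0.0486), and Uqcr11 under quantile normalization, with -0.29 (adjusted p = 0.0421).

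Uqcrh, the hinge protein that helps cytochrome c to dock and the gene with the ETS letters shown above, gave opposite results from its 2 probe sets. The brightest had signals of 9951, 8798 and 7427 at 10 weeks and 5285, 6525 and 6133 at 5 weeks, and it rose by 0.54 ± 0.13 (SE, adjusted p = 0.013) with no overlap. The other had 2881, 3309 and 3638 at 10 weeks and 5876, 7064 and 6809.5 at 5 weeks and differed by -1.002 ± 0.12 (SE, adjusted p = 0.000419), also with no overlap. The mean of both probe sets gave -0.23 (adjusted p = 0.108). Uqcrh is counted among the 4 higher members by its brightest probe set alone, and its direction depends on the probe set read.

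Complex IV had 1 of 14 members tested higher and 1 lower (7.14% each way, beside 15.3% higher and 18.7% lower of all genes tested). Of its 9 widely used subunits, 8 had differences above 0, with a median of 0.13, but under quantile normalization only 3 did and the median was -0.0034. Cox4i1, which holds the ATP-sensing site, was the only one called. Its signals were 15237, 13551 and 13845 at 10 weeks and 11100.3, 12129 and 10994 at 5 weeks, and all 10-week pools lay above all 5-week pools. It rose by 0.32 ± 0.09 (SE, adjusted p = 0.0235), but by 0.14 with quantile normalization (adjusted p = 0.168), and its adjusted p was 0.0861 without 10-week pool 1, 0.0538 without 10-week pool 3, 0.0723 without 5-week pool 1 and 0.0546 without 5-week pool 3. The brightest subunits, Cox7a2 and Cox6a1, differed by 0.20 ± 0.10 (SE, adjusted p = 0.182) and 0.18 ± 0.09 (SE, adjusted p = 0.17). Cox6b1 and Cox8a differed by 0.05 and 0.18, and the remaining 4 ranged from -0.10 (Cox6c) to 0.13 (Cox5a), none called. Cox7c, among these 4, was dim, with signals of 281, 178 and 274 at 10 weeks and 251, 276 and 164 at 5 weeks. Its difference was 0.08 ± 0.23 (SE, adjusted p = 0.825), and its other probe set missed the filter. Cox7a2l, which joins complexes III and IV, had 4507, 4001 and 4365 at 10 weeks and 3814, 3508 and 3743 at 5 weeks, and its 10-week pools lay above the 5-week pools. The difference, 0.22 ± 0.09 (SE), missed the threshold (adjusted p = 0.108). Its dimmer probe sets went the other way, with -0.09 and -0.09 and overlapping pools.

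Tissue-restricted isoforms of complex IV replace the widely used forms in particular organs. Cox6b2, known from testis, had low signals of 76.7, 112 and 94.9 at 10 weeks and 263, 338 and 307 at 5 weeks. Its difference of -1.41 ± 0.18 (SE) was the largest of all called members (adjusted p = 0.00067), and the ages did not overlap. Its mean log2 level was 6.97 at 10 weeks, under the filter at 7.07, and 8.38 at 5 weeks, so it was tested only because of its 5-week level. It missed the filter where 60% of probe sets were dropped. Cox6a2, the heart and skeletal muscle form, had 279.6, 1914 and 1251 at 10 weeks and 3239, 1793 and 5746 at 5 weeks, so 10-week pool 1 was far below the others and 10-week pool 2 lay above the lowest 5-week pool. With -1.82 ± 0.63 (SE) it missed the threshold (adjusted p = 0.0595), and without 10-week pool 1 the difference was -1.04. Without 10-week pool 2 or 5-week pool 2 it passed, with -2.36 (adjusted p = 0.0304) and -2.24 (adjusted p = 0.0402). Cox4i2, the lung form that responds to low oxygen, had 108, 127 and 111 at 10 weeks and 158, 245 and 169 at 5 weeks and a difference of -0.58 ± 0.20 (SE, adjusted p = 0.0552). The brightest probe set of Cox8c, known from testis, differed by 0.17 ± 0.11 (SE, adjusted p = 0.291), and Cox7b2, below the filter, had 35.5, 33.2 and 49.8 at 10 weeks and 31.9, 6 and 23.4 at 5 weeks.

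The 2 forms left out of the members, both of muscle and brown fat, were lower at 10 weeks in every pool. Cox7a1 had 545, 933 and 1585 at 10 weeks and 1813, 3048 and 2844 at 5 weeks, and Cox8b had 1441, 3977 and 5534 at 10 weeks and 6275, 9397 and 7637 at 5 weeks. They differed by -1.39 ± 0.34 (SE, adjusted p = 0.0152) and -1.26 ± 0.41 (SE, adjusted p = 0.0473), and 10-week pool 1 was the lowest in both. The adjusted p of Cox7a1 was 0.0528 without 5-week pool 3. That of Cox8b was 0.0659 without 10-week pool 2, 0.0665 without 5-week pool 1, 0.117 without 5-week pool 2 and 0.106 without 5-week pool 3, and its difference was -0.70 without 10-week pool 1 (adjusted p = 0.0364).

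In ATP synthase few genes passed the test. Of its 17 members 3 were lower (17.6%, beside 18.7% of all genes tested). None was higher (limma; 1 at an unadjusted p under 0.05), beside 15.3% of all genes. The median was 0.01 and became -0.11 under quantile normalization. Only 1 member was lower without 10-week pool 1, 10-week pool 3, 5-week pool 1 or 5-week pool 2. Atp5k, a small membrane subunit that joins 2 enzymes into a dimer, had signals of 4746, 5592 and 5307 at 10 weeks and 7369, 7610.1 and 6877 at 5 weeks. All 10-week pools were below all 5-week pools, and the difference was -0.48 ± 0.09 (SE, adjusted p = 0.00558), a call that every alternative kept. Atp5j, of the peripheral stalk that holds the head still, had 5135, 6312 and 5948 at 10 weeks and 7618, 7406 and 6808 at 5 weeks with no overlap. It differed by -0.33 ± 0.10 (SE, adjusted p = 0.0393), with an adjusted p of 0.125 without 10-week pool 1, 0.076 without 10-week pool 3, 0.113 without 5-week pool 1 and 0.0946 without 5-week pool 2. Atp5c1, the shaft that turns inside the head, had 7184, 7363 and 7566 at 10 weeks and 8781, 8591 and 8734 at 5 weeks and a small difference of -0.24 ± 0.08 (SE, adjusted p = 0.0453). Leaving out any pool ended this call: its adjusted p was 0.126 without 10-week pool 1, 0.104 without 10-week pool 2, 0.0833 without 10-week pool 3, 0.111 without 5-week pool 1, 0.0886 without 5-week pool 2 and 0.0735 without 5-week pool 3.

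The head's catalytic and structural subunits, Atp5b and Atp5a1, differed by 0.01 ± 0.10 (SE, adjusted p = 0.949) and -0.13 ± 0.08 (SE, adjusted p = 0.235). The rotating c ring is made of 1 protein coded by 3 genes. Atp5g1 had 3687, 4151 and 4032 at 10 weeks and 3104, 2467 and 4499 at 5 weeks, Atp5g2 had 7657, 7514 and 7982 at 10 weeks and 6404, 6384 and 6919 at 5 weeks, and Atp5g3 had 15217, 13001 and 14749 at 10 weeks and 13378, 13815 and 11211 at 5 weeks. Only the pools of Atp5g2 did not overlap, with 10 weeks above. The differences were 0.28 ± 0.19 (SE, adjusted p = 0.309), 0.23 ± 0.08 (SE, adjusted p = 0.0626) and 0.16 ± 0.11 (SE, adjusted p = 0.281), and no gene passed the test (limma; 1 at an unadjusted p under 0.05). Atp5g1 passed it without 5-week pool 3, with 0.51 (adjusted p = 0.0236), and Atp5g2 with array weights. All 3 differences were above 0, but 2 of 3 under quantile normalization. The other 9 members, of stalk, head and membrane part, ranged from -0.03 (Atp5e) to 0.11 (Atp5pb), and none was called.

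**Figure D3:**
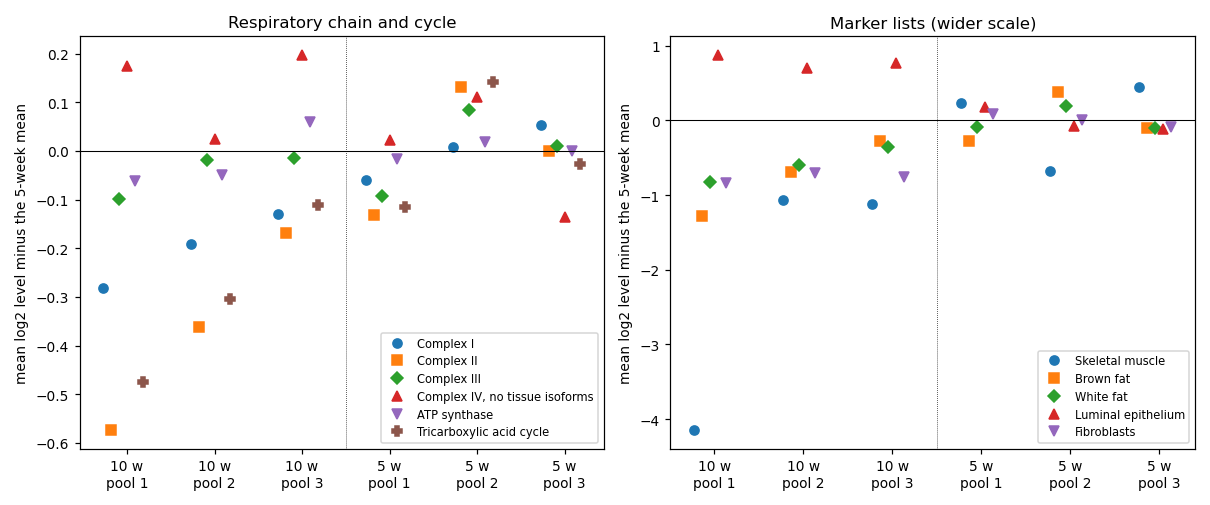
The mean log2 level of each gene set in each pool, minus the mean of the 5-week pools, is drawn on the vertical axis for 6 sets of the chain and cycle (left) and 5 marker lists (right, on a wider scale). All sets drawn are lowest in 10-week pool 1 except complex IV without tissue isoforms and the luminal epithelium list. On the left, complex I and complex II separate the ages. Complex III, complex IV without tissue isoforms, ATP synthase and the cycle do not.

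Probe sets of 1 gene did not always give the same answer. The members had 177 probe sets, of which 162 were tested, 34 lower and 9 higher, where 28.8% of all 27022 probe sets tested were called. Of 49 members with several probe sets tested, Uqcrh was the only one with calls in both directions. In 9 members the brightest probe set was not called and another was, and in 7 members at least 2 probe sets were called the same way. Ndufc2 had 3 higher probe sets that differed by 0.47, 0.49 and 0.47. The 3 probe sets of Ndufv1 were all lower, with differences of -0.41, -0.51 and -0.66. The brightest probe set of Atp5k and another gave -0.48 and -0.44, both called, and the third gave -0.32 and was not.

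The widest disagreement after Uqcrh was in Ndufa7. Its brightest probe set gave 0.11 ± 0.09 (SE, adjusted p = 0.369). Another had signals of 2783, 3334 and 2988 at 10 weeks and 6364, 6178 and 7639 at 5 weeks and a difference of -1.14 ± 0.11 (SE, adjusted p = 0.000224), and the mean over its probe sets was -0.36 (adjusted p = 0.0179). In Cox8c a dimmer probe set had 528, 449.5 and 681 at 10 weeks and 206, 205 and 181 at 5 weeks and rose by 1.33 ± 0.17 (SE, adjusted p = 0.000708). The second probe sets of Ndufs7, Sdha, Ndufa5 and Uqcrb were lower, with differences of -0.96, -0.55, -0.52 and -0.48. Those of Cox5a and Ndufb6 were higher, with 0.31 and 0.38. A pair of dim probe sets of Ndufab1 was lower, with -0.54 and -0.74. So 1 of the 2 tested probe sets of Sdha was called lower, the dimmer one.

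**Figure D4:**
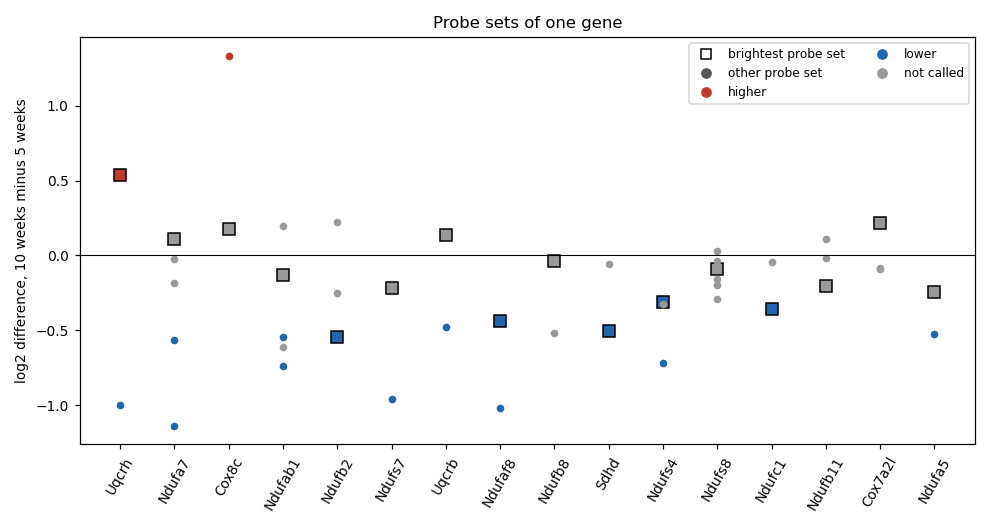
The log2 difference of every tested probe set (vertical axis) is drawn for the 16 members whose probe sets differed most. Squares are the brightest probe set and circles the others, with blue for lower, red for higher and grey for not called, and in Uqcrh a red square stands above a blue circle.

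Other genes of the mitochondrion were read from lists made by pathway. Of all genes tested, 18.7% were lower and 15.3% higher. Of 15 genes of the tricarboxylic acid cycle tested, 6 were lower (40%) and none higher (limma; none at an unadjusted p under 0.05), with a median of -0.15. The lower count was 2 without 10-week pool 1, 10-week pool 2 or 5-week pool 2 and 1 without 5-week pool 3. Ogdh, of the 2-oxoglutarate dehydrogenase complex, and Fh1, fumarase, differed by -0.70 ± 0.16 (SE, adjusted p = 0.0116) and -0.63 ± 0.16 (SE, adjusted p = 0.0165), the latter with an adjusted p of 0.0555 without 5-week pool 3. Of 34 assembly factors outside the prefixes, 5 were lower (14.7%), 2 higher (5.88%), and the median was -0.17. These counts were 3 to 4 and 1 to 2 with a pool left out. Atpaf2, which builds the head of ATP synthase, and Sdhaf4, which binds Sdha before it joins the complex, differed by -0.83 ± 0.15 (SE, adjusted p = 0.00423) and -0.49 ± 0.10 (SE, adjusted p = 0.00678). Sdhaf1, which brings iron-sulfur clusters to Sdhb, rose, with 1187, 2502 and 1597 at 10 weeks and 715, 686 and 744 at 5 weeks and a difference of 1.20 ± 0.23 (SE, adjusted p = 0.00491). Its sign was opposite to that of all 4 complex II subunits.

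Of 17 electron carriers and coenzyme Q genes 3 were lower (17.6%, beside 18.7% of all genes tested) and none higher (limma; 1 at an unadjusted p under 0.05). Their median was -0.24, and 2 to 5 were lower with a pool left out. They included Coq10a, which binds coenzyme Q, at -0.84 ± 0.14 (SE, adjusted p = 0.00279) and Etfb, which brings electrons from fat oxidation, at -0.60 ± 0.14 (SE, adjusted p = 0.0107). With averaged probe sets Coq10a was -0.42 (adjusted p = 0.119). Of 16 regulators of mitochondrial biogenesis 2 were lower (12.5%) and 1 higher (6.25%), with a median of -0.02. Ppargc1a, the coactivator PGC-1alpha, had 143, 171 and 218 at 10 weeks and 250, 315 and 275 at 5 weeks, with no overlap, and a difference of -0.59 ± 0.18 (SE, adjusted p = 0.0395). Its adjusted p was 0.127 without 10-week pool 1, 0.0925 without 10-week pool 2, 0.0573 without 5-week pool 1, 0.112 without 5-week pool 2 and 0.0812 without 5-week pool 3. Twnk, the mitochondrial DNA helicase, differed by -0.55 ± 0.14 (SE, adjusted p = 0.0165), and its adjusted p was 0.0573 without 10-week pool 2, 0.0512 without 5-week pool 2 and 0.0515 without 5-week pool 3. Yy1, a transcription factor, rose by 0.31 ± 0.10 (SE, adjusted p = 0.0478), with an adjusted p of 0.14 without 10-week pool 1, 0.0634 without 10-week pool 2, 0.11 without 10-week pool 3, 0.12 without 5-week pool 2 and 0.116 without 5-week pool 3. Of 15 channel and import genes 2 were lower and 2 higher (13.3% each way), with a median of 0.05. With a pool left out 2 to 3 were lower and 0 to 2 higher. Slc25a4, the ADP/ATP carrier of heart and muscle, and Timm50, of the import channel, differed by -0.74 ± 0.17 (SE, adjusted p = 0.0133) and -0.70 ± 0.14 (SE, adjusted p = 0.00679). With averaged probe sets Timm50 was -0.15 (adjusted p = 0.336). Atpif1, the inhibitor of ATP synthase, rose by 0.42 ± 0.11 (SE, adjusted p = 0.0241), with an adjusted p of 0.0712 without 10-week pool 1, 0.0752 without 10-week pool 3, 0.0717 without 5-week pool 1 and 0.0767 without 5-week pool 2. With averaged probe sets it was 0.14 (adjusted p = 0.351).

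Markers of tissues rich in mitochondria also differed between the ages. Of all genes tested, 18.7% were lower and 15.3% higher. Of 16 skeletal muscle genes 5 were lower (31.2%) and none higher (limma; 15 lower at an unadjusted p under 0.05). The median of the muscle genes was -2.09, with summed signals of 9123 to 73538 at 10 weeks and 95956 to 171418 at 5 weeks. Their mean log2 level was 8.73, 11.81 and 11.76 at 10 weeks and 13.12, 12.20 and 13.32 at 5 weeks. The lowest pool was 10-week pool 1, as for Cox6a2, each complex with its tissue isoforms, the cycle list and every marker list but epithelium. Among the 5-week pools, pool 2 was the lowest for the muscle list and the highest for complex II, the cycle and both fat lists. The lower count was 9 without any 1 of the 10-week pools, 6 without 5-week pool 2 and 0 without 5-week pool 1 or 5-week pool 3. Of 8 brown fat genes 5 were lower (62.5%) and none higher (limma; none at an unadjusted p under 0.05), with summed signals of 14597 to 25494 and 22949 to 37657, which overlapped. Cox7a1, Cox8b and Ppargc1a, described above, are among these 5. Without 10-week pool 1 the lower count was 2, without 10-week pool 3 it was 4, and without any other pool it was 1. Ucp1, the uncoupling protein of brown fat, had 1772, 4356 and 7404 at 10 weeks and 8049, 13558 and 8627 at 5 weeks and a difference of -1.34 ± 0.44 (SE, adjusted p = 0.0483). Its adjusted p was 0.0757 without 10-week pool 1, 0.086 without 10-week pool 2, 0.0698 without 5-week pool 1, 0.128 without 5-week pool 2 and 0.0876 without 5-week pool 3, and the difference was -0.78 without 10-week pool 1. Cidea, of the same list, had 9711, 5929 and 9002 at 10 weeks and 4754, 8072 and 5028 at 5 weeks and a difference above 0, 0.47 ± 0.23 (SE, adjusted p = 0.161), with overlapping pools. No gene of these lists was listed at 0 in any pool.

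White fat genes were lower in 4 of 8 (50%, beside 18.7% of all genes tested), with summed signals of 55898 to 70267 at 10 weeks and 72167 to 87639 at 5 weeks. Fibroblast genes were lower in 6 of 8 (75%), with 50736 to 54403 and 73170.0 to 86874, and vessel genes in 6 of 7 (85.7%), with 4114 to 4973 and 7274 to 8411. Luminal and milk-producing epithelium was higher in 7 of 12 (58.3%, beside 15.3% of all genes tested), with 125791 to 144128 and 75983 to 98503. Of 6 B cell genes tested none was called (limma; 1 lower at an unadjusted p under 0.05), and their level was highest in 5-week pool 2. The part of these cell types in the differences of the respiratory chain members was not tested.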

How the data were processed

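Total RNA labelled with biotinylated UTP was hybridised to 6 arrays, per the labels. Signal intensities on a linear scale were deposited for every probe set, and trimming 2% at each end of an array left a mean of 500. How signals were computed, detection calls and batches are not given in the sources used here.

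Among 45101 probe sets, 64 controls were not used. The platform annotation gave 1 symbol to 34945 of the remaining 45037, several to 932 and none to 9160. Gene identifiers matched 34741 of these to RefSeq's GRCm38.p6 names. In 10 of the probe sets with several symbols a symbol had a member prefix, and they were not used as members. Signals were floored at 1 and converted to log2(signal + 32). The 40% dimmest probe sets were dropped, which left 27022 and 13002 genes by their brightest probe set. limma 3.58.1 (R 4.3.3) (lmFit, then eBayes with trended variance) compared the ages in a two-sided test without covariates, with 4 residual degrees of freedom and Benjamini-Hochberg adjustment over all 27022. A permutation of 3 against 3 pools cannot go below p = 0.1. The steps were tested on simulated data.

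The members and the gene lists (assembly factors, electron carriers, tricarboxylic acid cycle, biogenesis, channels and import, and markers of muscle, fat, epithelium, fibroblasts, vessels and B cells) were chosen with earlier results of these data known. Genes named are, per complex, the 3 called genes of lowest adjusted p in the commoner direction, the largest call the other way and the 2 brightest. Also named are the 6 largest called differences each way, isoform families, complex II, members with opposed probe sets, and members below the filter. Per pathway list the 2 of lowest adjusted p and the largest call the other way are named, and Cox7a1, Cox8b and Ppargc1a always. Marker lists are given by counts and sums, not by that rule, and Ucp1, Cidea and the other called or role-sharing members were chosen after their values were seen. The 16 alternatives changed the offset (1, 100), the filter (none, 60%), the scaling, the variance model, array weights and the probe set of a gene, or left out 1 pool. Replicate numbers follow accession order and pair no pools. Python 3.11.15 with matplotlib 3.10.9 made the figures.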

Additional observations from a re-analysis of the deposited data

How the results depend on the processing

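No paired analysis was possible because replicate numbers follow accession order only and the pools of the ages hold different animals. Of the 24 members called, 8 kept the call under every alternative that tested them, 14 lost it without at least 1 pool, and 17 of the 62 not called were called under at least 1 alternative. With no filter 13 members were lower and 2 higher, in complex I 1 higher, in complex II 0 lower, in complex IV 0 higher and in ATP synthase 1 lower. With no variance trend 12 were lower and 2 higher, in complex I 8 lower and 1 higher, in complex II 0 lower, in complex IV 2 lower and 0 higher, and in ATP synthase 1 lower. With quantile normalization 2 members were higher and the median was -0.16, with 1 higher in complex I, 4 lower in complex II, 2 lower in complex III, and 3 lower and 0 higher in complex IV. With arrays shifted to 1 median 1 was lower in complex II and 2 in complex IV. Array weights gave 0 lower in complex II and 1 higher in ATP synthase, and 60% of probe sets dropped gave 0 lower in complex IV. The mean of a gene's probe sets gave 0 lower in complex II, 0 higher in complex III, and 2 lower and 2 higher in complex IV. It turned Uqcrh to -0.23 (adjusted p = 0.108) and Ndufa7 to -0.36 (adjusted p = 0.0179). With 1 pool left out, the members lower numbered 9 to 16 and those higher 2 to 5, with a median of -0.13 to -0.04. By complex, lower calls were then 7 to 12 in I, 0 to 2 in II, 0 to 1 in III, 1 to 2 in IV and 1 to 2 in ATP synthase, and higher calls were 1 to 3, 0 to 0, 1 to 1, 0 to 1 and 0 to 1. Both offsets and the robust variance trend left the counts of members at 20 lower and 4 higher. Fewer pools, fewer or more probe sets tested and other means follow from how these alternatives are built, and the cause of each change was otherwise not tested. Ndufb4 and Cox7b2 were tested with no filter, and neither was called there.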
